A study of Mus musculus with 6 samples.

Results

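The Hedgehog pathway genes described here are Shh, Ihh, Ptch1, Smo, Gli1, Gli2, Gli3 and Hhip, and the data are the open chromatin peaks around them in differentiating mouse epiblast stem cells. A peak belonged to one of these 8 genes where that gene was the nearest protein-coding gene within 100 kb. This rule gave 202 of 205844 peaks in the list named FM and 133 of 139164 peaks in the list named KO. Merged over both lists, the genes held 220 of 239675 regions.

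ATAC-seq, an assay that lets Tn5 transposase insert sequencing adapters into accessible DNA, was run on 6 libraries from 50000 cells each. The 3 induced libraries came from cells whose Mixl1 was switched on with doxycycline (1 µg/mL, 24 h), and the 3 knockout libraries from Mixl1 knockout (KO) cells. All were epiblast stem cells, grown on irradiated mouse embryonic fibroblasts with bFGF at 10 ng/mL and Activin A at 20 ng/mL, and then differentiated in serum for 2 days as embryoid bodies. Mixl1 encodes a homeodomain protein made in the primitive streak during gastrulation. The labels give neither the Mixl1 genotype of the inducible cells, nor the promoter of the transgene, nor doxycycline for the knockout, nor the number of clones. What belongs to Mixl1, to the drug and to the cell lines thus cannot be told apart. With 1 deposited peak list for each group, values carry no replicate error and the lists were not tested against each other. No label explains FM, and the list was taken for the induced cells because the other list is named KO. The depth in reads is unknown.

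In Hedgehog signalling a secreted ligand, such as Sonic hedgehog or Indian hedgehog, binds the receptor Patched and relieves its block on the membrane protein Smoothened. Smoothened signalling then shifts the Gli transcription factors from repressors to activators, and Ptch1, Gli1 and Hhip are themselves well-known target genes of the pathway. In the mouse gastrula Shh is made in the node and notochord, and Ihh in the node and the visceral endoderm.

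The starts of 6 of the 8 genes could be placed with RefSeq promoter windows on assembly GRCm38.p6 (mm10), which span 250 bases before to 50 bases after a gene's start. Shh and Gli1 have no window there. All of these 6 windows, at Ihh, Ptch1, Smo, Gli2, Gli3 and Hhip, lay under a peak in both lists, and so did 63.1% of the 21262 windows of protein-coding genes. The 6 windows were rich in G and C, with 67.3% to 76.3% against a median of 56.3% over all windows. They held 17 to 47 CpG dinucleotides, and the median window held 13. The 3 windows below are shown because the summit, the position of most signal in a peak, fell inside the window in both lists. Capitals mark the bases from the summit of the FM peak to the summit of the KO peak, both included, and each is printed 5′ to 3′ on the strand of its gene. They come from chr6:29735247-29735546 (plus strand), chr1:119053570-119053869 (minus strand) and chr1:74951623-74951922 (minus strand).
Smo: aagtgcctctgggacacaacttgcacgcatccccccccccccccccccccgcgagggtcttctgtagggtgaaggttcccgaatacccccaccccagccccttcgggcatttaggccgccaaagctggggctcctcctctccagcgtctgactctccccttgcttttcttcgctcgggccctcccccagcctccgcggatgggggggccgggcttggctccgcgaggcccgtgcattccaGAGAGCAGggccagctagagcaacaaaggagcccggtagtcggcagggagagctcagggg
Gli2: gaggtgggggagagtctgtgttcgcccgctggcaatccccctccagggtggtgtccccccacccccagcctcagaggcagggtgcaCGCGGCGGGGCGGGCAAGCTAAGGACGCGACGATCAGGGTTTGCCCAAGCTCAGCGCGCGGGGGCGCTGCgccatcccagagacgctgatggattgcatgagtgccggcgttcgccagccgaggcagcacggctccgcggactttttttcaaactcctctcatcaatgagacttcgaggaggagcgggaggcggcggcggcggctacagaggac
Ihh: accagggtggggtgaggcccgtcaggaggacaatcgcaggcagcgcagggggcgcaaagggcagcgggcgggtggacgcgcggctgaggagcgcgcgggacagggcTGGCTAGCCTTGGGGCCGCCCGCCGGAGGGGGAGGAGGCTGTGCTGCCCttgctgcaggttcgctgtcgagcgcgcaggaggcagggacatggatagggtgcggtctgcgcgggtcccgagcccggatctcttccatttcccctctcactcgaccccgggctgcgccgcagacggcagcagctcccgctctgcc

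At Smo the summits lay 3 bases (FM) and 10 bases (KO) before the start, so that 8 bases are in capitals. At Gli2 they lay 164 and 95 bases before the start, and at Ihh 96 and 144 bases before it. None of the 6 windows held the GLI site GACCACCCA, its first 8 letters GACCACCC, the paired homeodomain sites (TAAT followed by ATTA after a gap of 3 or of 2 bases), or the forkhead site TGTTTAC, searched on both strands. Over all 21262 windows these letters occurred in 0.179%, 0.743%, 0.362%, 0.315% and 3.01%. The first GLI motif contains the second, and no match says only that these letters are not in these windows.

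A region was FM-specific where the FM list had a peak and the KO list had none overlapping by at least 1 bp, and KO-specific in the opposite case. Of the 220 regions at the 8 genes, 92 were FM-specific (41.8%), 25 KO-specific (11.4%) and 103 in both lists (46.8%). Over all 223906 regions within 100 kb of a protein-coding gene, 43.4% were FM-specific, 15.5% KO-specific and 41.2% in both. Of the 117 specific regions at the Hedgehog genes, 78.6% were FM-specific (exact binomial 95% interval 70.1 to 85.7, counting error only). The background was 73.7%, inside that interval. The number of regions ranged from 5 at Ihh and Smo to 112 at Gli2, which ranked 55 among 18634 genes with a region. Under the nearest-gene rule these counts also depend on the distance to the next protein-coding genes. These lay 9.69 and 15.7 kb from Ihh, 16.9 and 7.01 kb from Smo, and 149 and 361 kb from Gli2. Counting every region within 100 kb gave 18 FM-specific, 4 KO-specific and 25 common regions at Ihh. The same counts were 15, 2 and 21 at Smo, 50, 17 and 54 at Gli2, and 2, 1 and 3 at Hhip. By nearest gene, FM-specific regions outnumbered KO-specific ones at 7 genes, and Ihh had 1 of each, whereas 76.4% of the 16326 genes with a specific region had more FM-specific ones. The share at the 8 genes is therefore near that of the whole lists, of which the FM list is the longer. With the 50000 peaks of lowest p-value from each list, 20 regions at the 8 genes were FM-specific and 13 KO-specific. Specific then means without a peak among the other list's 50000, and a weaker peak may remain in its full list. The share was 60.6% (exact binomial interval 42.1 to 77.1), and the 49.7% over all regions was inside that interval.

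**Figure D1:**
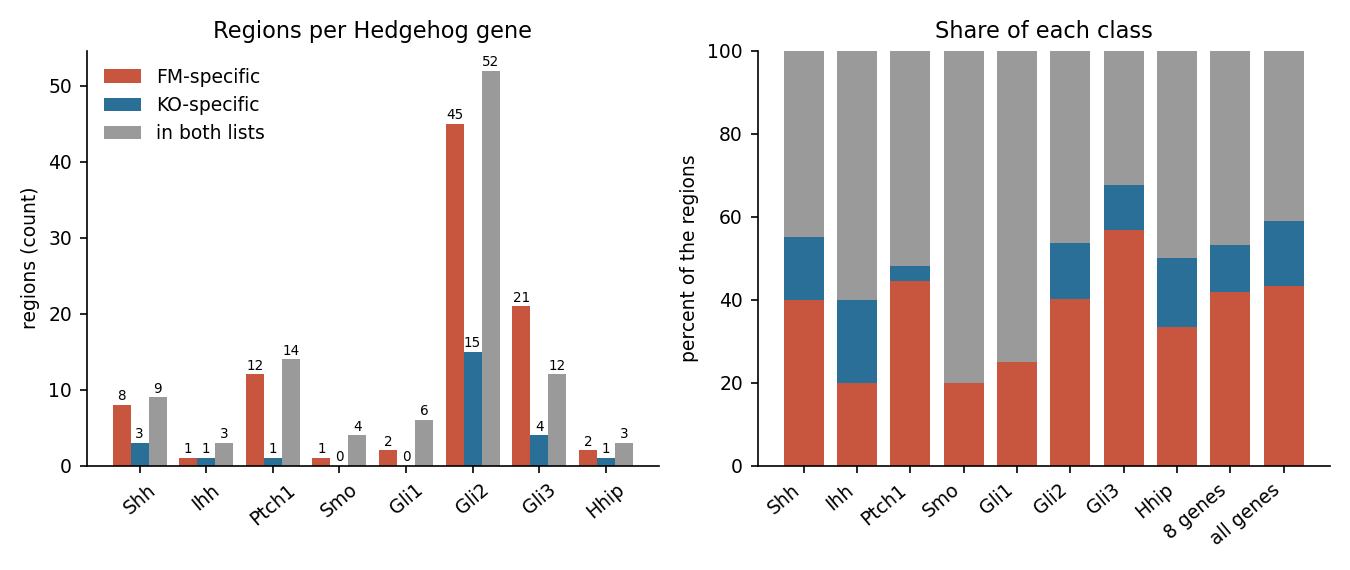
Regions per Hedgehog gene (left, count) and the percent of each gene's regions in each class (right), as FM-specific, KO-specific or in both lists; the last bars on the right are all 8 genes and all regions near protein-coding genes. Gli2 held 112 of the 220 regions, and 56.8% of the 37 regions of Gli3 were FM-specific, beside 43.4% of all regions near protein-coding genes.

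Each peak carries the authors' fold enrichment of its strongest summit over the local background. The number of fragments piled up at the summit and the background, in fragments, were recovered from the fold and the p-value of each peak. Whether the caller counted read pairs or single reads is not known here, and the word fragments stands for either. The lowest background was 28.6 fragments in the FM list, against 28.8 in the KO list. Heights of FM and KO peaks are given side by side, and no change was read from them. The 8 loci differed among themselves in background. Peaks at Gli1 had a median background of 94.6 fragments in the FM list, against 92.4 in the KO list, higher than under 97.7% of the peaks in either list. At Ihh the medians were 73.8 and 60.6 fragments, and at Smo 65.2 and 46.5. Gli3 and Hhip sat at the floor, with medians of 28.6 (FM) and 28.8 (KO) at both genes. Gene bodies followed the same order only in part, with 5.98 regions per 10 kb inside Gli1 and 6.29 inside Ihh, against 0.939 inside Gli3 and 0.434 inside Hhip. Shh, with a median FM background of 31.8 fragments, had 5.85, and Smo had 1.93. Ptch1 and Gli2 had 2.61 and 2.68. A region that overlaps an end counts as inside here. Where the background is high, a given pileup yields a lower fold.

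**Figure D2:**
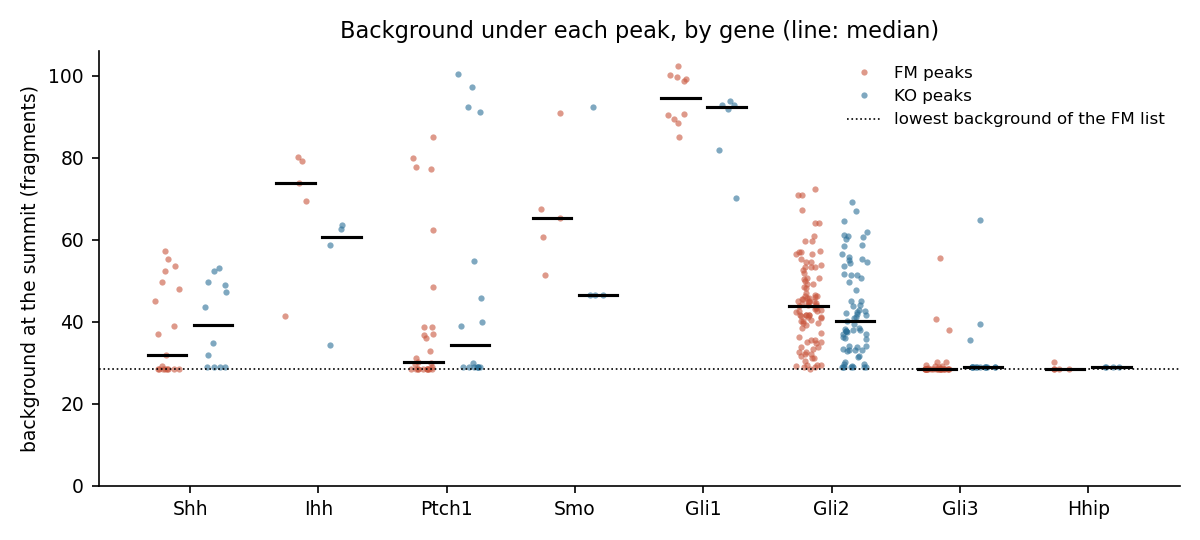
Background in fragments at the summit of every peak of the 8 genes, FM peaks left and KO peaks right of each gene, with black lines at the medians and a dotted line at the lowest background of the FM list (28.6 fragments). Gli1 peaks lie at 70.2 fragments or more, and peaks of Gli3 and Hhip gather at the floor.

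Shh, the ligand of the notochord and floor plate, is gene 20423 at chr5:28456840-28467101, and it had 8 FM-specific, 3 KO-specific and 9 common regions. The FM share of its 11 specific regions was 72.7% (exact binomial interval 39.0 to 94.0), and 77.9% on all of chromosome 5. Within 20 kb of the gene the specific regions were 3 FM and 3 KO. With 50000 peaks from each list they were 1 FM and 2 KO, where weaker peaks of the other list are not counted. Over all regions the FM share of specific regions was 49.7% under that setting. Its 19 FM peaks had folds of 1.44 to 2.64 and its 12 KO peaks folds of 1.44 to 2.88, with medians of 1.86 and 1.97. The FM peak of highest fold lay 8.16 kb below the gene, at chr5:28448363-28448850, with 77 fragments and a fold of 2.64. The KO peak of highest fold lay on the other side, 54.4 kb above the gene at chr5:28520740-28521954, with 85 fragments and a fold of 2.88. These folds were above those of 87.0% of all FM peaks and 84.3% of all KO peaks. Both of these regions had a peak in each list. Of the 10 regions above the gene, 7 were FM-specific and 0 KO-specific, and 4 of these FM-specific regions followed one another over 47.4 kb. Over all regions near protein-coding genes, 43.4% were FM-specific and 15.5% KO-specific. The longest FM-specific runs were also 4 regions at Ptch1 and Gli3 and 5 at Gli2, and 1 or 2 at the remaining genes. The strongest FM-specific peak (chr5:28519291-28519504, fold 2.06) had a −log10 q of 5.17, where q is the caller's p-value after correction over the whole list. Within 1 kb of either end of Shh the FM list had no peak. There the KO list had a KO-specific one, chr5:28466661-28466883, its summit 0.327 kb inside the end of higher coordinate, with 89 fragments over a background of 49.7 and a fold of 1.78. Long-range enhancers of Shh are known inside the distant gene Lmbr1, and these are outside the 100 kb used here.

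Ihh, the ligand of the visceral endoderm and of growing cartilage, is gene 16147 at chr1:74945315-74951672. It had 1 FM-specific, 1 KO-specific and 3 common regions. The peak over its start had 136 fragments in the FM list, against 99 in the KO list, over backgrounds of 69.5 and 58.7, and folds of 1.94 and 1.68. The FM-specific peak (chr1:74945925-74946327, 128 fragments, −log10 q 6.44) lay at the end of the gene, 5.53 kb after the start. The KO-specific peak (chr1:74950804-74951003, 109 fragments, −log10 q 5.41) lay 0.771 kb after the start. Their folds were 1.72 and 1.73, although their pileups exceeded every pileup at Hhip.

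Ptch1, which encodes the Hedgehog receptor and is a target of the pathway, is gene 19206 at chr13:63508328-63573460. It had 12 FM-specific, 1 KO-specific and 14 common regions, an FM-specific share of 92.3% of 13 specific regions (exact binomial interval 64.0 to 99.8). On all of chromosome 13 the share was 76.7%, inside that interval. With the 50000 peaks of lowest p-value from each list the counts were 1 FM-specific and 3 KO-specific regions, where weaker peaks of the other list are not counted. The FM share over all regions was 49.7% under that setting. Against the full FM list only 1 region of Ptch1 was KO-specific. No specific peak of Ptch1 was strong. The highest −log10 q was 7.57 for the FM-specific peak at chr13:63538516-63539493 in the gene body, and 3.20 for the KO-specific peak at chr13:63632552-63632779, 59.3 kb above the gene. The 7 regions from chr13:63563070 to 63610134, which hold the annotated start and the sequence before it, were all in both lists. The highest peak of the gene in both lists lay 2.28 kb (FM) and 2.30 kb (KO) before the start. It had 304 fragments and a fold of 3.55 in the FM list and 427 fragments and a fold of 4.22 in the KO list. The start used is that of the promoter window, which lies within the annotated gene. This peak is thus inside the gene, 5.44 kb (FM) and 5.42 kb (KO) from its end of higher coordinate.

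The peaks over the Ptch1 start overlapped but had their strongest summits in different places. The FM peak, chr13:63565001-63566188, had the strongest of its 5 summits 217 bases after the start, with 121 fragments and a fold of 1.51. The KO peak, chr13:63564982-63566575, had the strongest of its 4 summits 669 bases before the start, also inside the annotated gene. This KO summit had 242 fragments, a fold of 2.48 and a −log10 q of 32.2. The FM peak ended before the position of that KO summit, and no FM peak covered it, so the overlap rule counts as common a summit that the FM list does not hold. Of the 44431 KO summits covered by no FM peak, 201 (0.452%) had a −log10 q at least as high. This summit was singled out after its values were seen. In the opposite direction, 15 of the 110 common FM peaks at the 8 genes had a summit outside every KO peak, compared with 9 of the 108 common KO peaks outside every FM peak. These are 13.6% and 8.33%, where 8.86% of all common FM peaks and 6.13% of all common KO peaks had such a summit. Among these 15, the FM peak at the upper end of Ptch1, chr13:63572292-63573186, had 140 fragments and a −log10 q of 14.7.

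**Figure D3:**
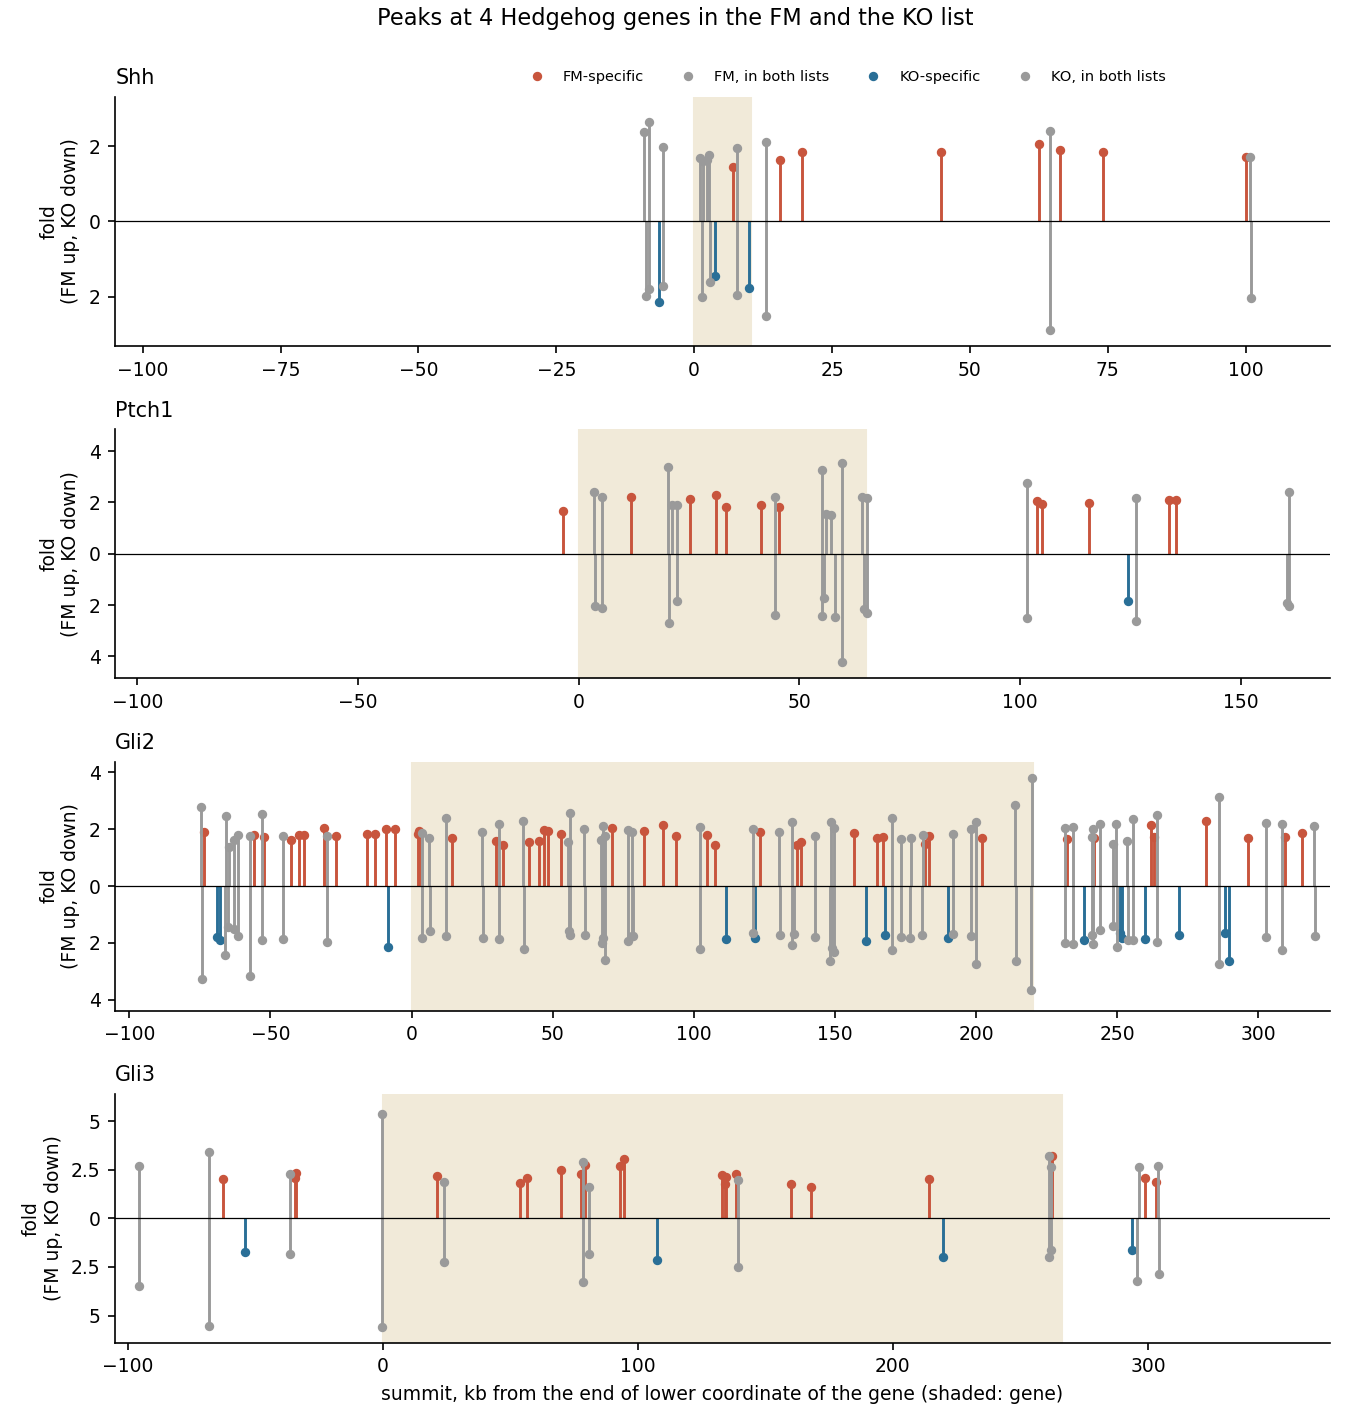
Fold of every peak at Shh, Ptch1, Gli2 and Gli3 against the distance of its summit from the end of lower coordinate of the gene (kb), FM upward and KO downward from 0, with peaks in both lists in grey and the gene shaded. Specific peaks stay below the highest common peak of each gene. Of the 25 regions overlapping Gli3, 16 were FM-specific, where 43.4% of all regions near protein-coding genes were.

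Hhip, a membrane protein that binds and sequesters the ligands and is induced by the pathway, is gene 15245 at chr8:79965850-80058060. It had 2 FM-specific, 1 KO-specific and 3 common regions, of which 4 in all overlapped its 92.2 kb. The peak over its start had 103 fragments and a fold of 3.34 in the FM list and 102 fragments and a fold of 3.45 in the KO list. A second common peak lay in the gene body (FM peak chr8:80032610-80033211), with 85 fragments (FM) and 70 fragments (KO). The specific peaks had −log10 q of 4.27 at most in the FM list, against 2.95 in the KO list, where the caller's threshold is 1.30.

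Smo, which encodes Smoothened, held the highest peak of all 8 genes. It is gene 319757 at chr6:29735497-29761366. In the gene body, 12.9 kb after the start, the FM list had chr6:29747629-29749060 with 1129 fragments over a background of 90.8 and a fold of 12.3. The KO list had chr6:29747678-29749181 with 1263 fragments over 92.5 and a fold of 13.5. By fold this peak ranked 102 of 205844 FM peaks and 131 of 139164 KO peaks, lists of different lengths. The FM and KO summits of this peak were at 29748430 and 29748427. The peak over the start had 254 fragments and a fold of 4.87 in the FM list and 309 fragments and a fold of 6.53 in the KO list. Of 5 regions at Smo, 4 were in both lists and 1 was FM-specific, a weak peak near the far end of the gene (chr6:29759806-29760379, fold 1.61).

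**Figure D4:**
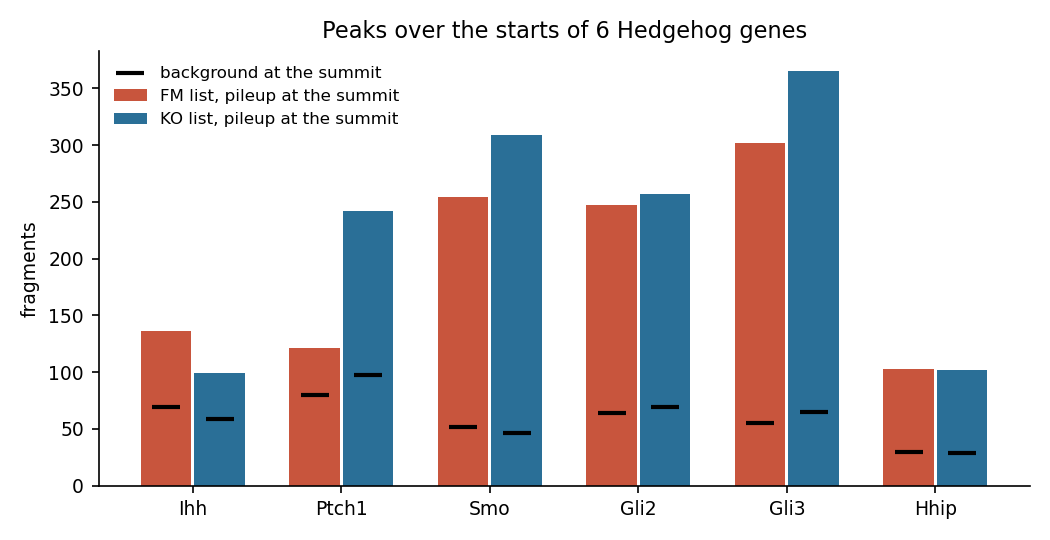
Fragments at the summit (bars) and background at the summit (black lines) of the peak over the start of 6 Hedgehog genes, FM left of KO. Smo, Gli2 and Gli3 have 247 fragments or more in both lists, and at Ptch1 the FM and KO bars (121 and 242 fragments) belong to summits at different positions.

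Gli1, a transcriptional activator whose gene is a direct target of the pathway, is gene 14632 at chr10:127329882-127341579. It had 2 FM-specific, 0 KO-specific and 6 common regions. The 10 FM peaks had 124 to 191 fragments and the 6 KO peaks 108 to 233, over the high background given above. The highest KO peak, chr10:127338896-127339751 in the gene body, had 233 fragments, a fold of 2.49 and a −log10 q of 31.3. The highest FM peak by fold was FM-specific. It lay inside the gene at chr10:127332368-127332820, 2.76 kb from the end of lower coordinate, with 191 fragments, a fold of 2.10 and a −log10 q of 17.5. A weaker FM-specific peak stood beside it, with a fold of 1.38. Around the end of higher coordinate, the FM list had peaks with summits 0.788 kb inside and 0.327 and 0.782 kb outside the gene, and the KO list 0.819 kb inside and 0.831 kb outside.

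Gli2, the main activator of early Hedgehog signalling, had the most regions. It is gene 14633 at chr1:118834061-119054405, and 45 of its 112 regions were FM-specific, 15 KO-specific and 52 common. The FM share of its 60 specific regions was 75.0% (exact binomial interval 62.1 to 85.3), and 70.6% on all of chromosome 1. FM-specific regions were 25 of 59 overlapping the gene, 12 of 24 below it and 8 of 29 above it, on the side of its start. KO-specific regions were 5, 3 and 7 in the same places. Over all regions near protein-coding genes, 43.4% were FM-specific and 15.5% KO-specific. The highest peak was that over the start, with 247 fragments and a fold of 3.81 in the FM list (chr1:119052765-119054331) and 257 fragments and a fold of 3.67 in the KO list (chr1:119052816-119054340). The strongest specific peak was a KO one, chr1:119123377-119123846, 70.1 kb before the start, with 80 fragments over a background of 29.6, a fold of 2.64 and a −log10 q of 12.0. The strongest FM-specific peak lay 42.4 kb before the start (chr1:119095911-119096225), with 100 fragments over 45.8 and a −log10 q of 9.69.

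Gli3, which in the absence of ligand acts mainly as the pathway's repressor, had the highest FM-specific share of regions among the 8 genes, 56.8%. Over all regions near protein-coding genes this share was 43.4%. Among the 16 other components described below it ran from 18.2% at Stk36 to 73.7% at Evc2. Gli3 is gene 14634 at chr13:15463723-15730026 and had 21 FM-specific, 4 KO-specific and 12 common regions. The FM share of its 25 specific regions was 84.0% (exact binomial interval 63.9 to 95.5), and that of chromosome 13 was 76.7%, inside the interval. Over its start, the FM list had 302 fragments and a fold of 5.35 and the KO list 365 fragments and a fold of 5.57. Of the 25 regions overlapping the gene, 16 were FM-specific and 2 KO-specific, where 43.4% and 15.5% of all regions near protein-coding genes were. Inside Gli3, 4 FM-specific peaks reached a −log10 q of 10 or more. These were chr13:15542676-15542897, 79.1 kb after the start, with 80 fragments, chr13:15556602-15557118 with 78 fragments, chr13:15557744-15558314 with 90 fragments and, 3.83 kb from the far end of the gene, chr13:15725958-15726384 with 95 fragments. Their folds were 2.74, 2.67, 3.08 and 3.21, all over backgrounds of 28.6 to 28.9 fragments. The first and the last of them lay beside regions common to both lists, chr13:15542068-15542469 and chr13:15725331-15725789. The strongest KO-specific peak was chr13:15571152-15571419, with 63 fragments, a fold of 2.14 and a −log10 q of 5.90. Away from the gene, a peak 68.4 kb before the start was common to both lists, with a fold of 3.42 in the FM list (chr13:15395186-15395613) and 5.56 in the KO list (chr13:15395175-15395952).

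Strong specific peaks were few. Of the 202 FM peaks, 5 (2.48%) were FM-specific with a −log10 q of at least 10, namely the 4 in Gli3 and the one in Gli1, and 2.99% of all FM peaks met this rule. Of the 133 KO peaks, 1 (0.752%) did, the one at Gli2, against 2.59% of all KO peaks. The median −log10 q of the specific peaks was 4.27 in the FM list, against 4.32 in the KO list, and of the common peaks 8.09 and 6.12. Over all peaks these medians were 4.35 and 4.21 for specific and 8.61 and 7.05 for common ones. Of the specific peaks, 57.6% of the FM and 44.0% of the KO peaks overlapped their gene, beside 58.6% and 51.7% over all specific peaks.

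**Figure D5:**
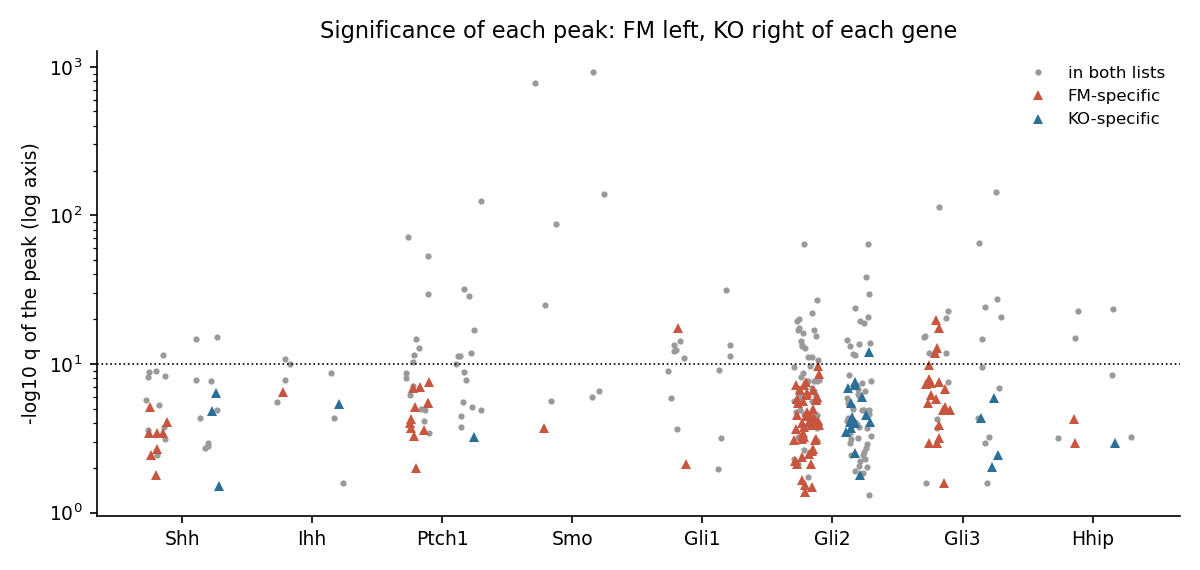
−log10 q (log axis) of every peak of the 8 genes, FM left and KO right of each gene, with grey points for peaks in both lists, triangles for specific peaks and a dotted line at 10. Above the line stand 5 FM-specific peaks, at Gli1 and Gli3, and 1 KO-specific peak, at Gli2.

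Other components of the pathway were described by a list of 16 genes with 427 regions. They cover the ligand Dhh and its secretion (Disp1, Hhat, Scube1, Scube2 and Scube3), co-receptors (Gas1, Cdon and Boc) and regulators of the Gli proteins and the cilium (Sufu, Kif7, Evc, Evc2, Gpr161, Stk36 and Spop). All 16 had a region, and all 16 had more FM-specific than KO-specific regions, where 76.4% of genes with specific regions did. The 16 genes had a median of 21 regions, against 7 over all genes with a region. Genes of unlike region number are thus set side by side, and no excess was read from this. Their 218 FM-specific, 64 KO-specific and 145 common regions gave an FM share of 77.3% of the specific regions. The exact binomial interval of 72.0 to 82.1 holds the background of 73.7%. This interval covers counting error only and takes regions as independent, while single genes ran from 52.5% at Disp1 to 92.6% at Boc. Hhat, the acyltransferase that attaches palmitate to the ligands, had the most FM-specific regions, 46, and 4 KO-specific ones. Disp1, which releases the lipid-modified ligands, had the most KO-specific regions, 19, beside 21 FM-specific ones. Of the 17 promoter windows of 15 of these genes, 14 had an FM peak and 15 a KO peak, where 67.4% and 64.8% of all windows had one.

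The choice of 100 kb leaves out regions further away. The most distant regions inside it were at Gli2, 99.4 kb away with folds of 2.11 (FM) and 1.74 (KO), and at Gli3, 95.4 kb away with folds of 2.67 and 3.48. The nearest outside it were at Shh, 100.8 kb away with folds of 1.78 and 2.20, and 101.7 kb away with no FM peak and a KO fold of 1.92. Markers of the cultured cell type and of other cell types were checked as peaks within 1 kb of either gene end. All 5 epiblast and all 5 streak genes had one in both lists, Mixl1 among them, and so did 3 of 3 endoderm genes, 4 of 5 fibroblast genes and 2 of 2 trophoblast genes. Of 4 node genes the FM list had such a peak at 3, without Shh, and the KO list at 4. The KO peak at Shh was weak (fold 1.78, −log10 q 4.81). Just beyond the 1 kb limit at the other end of Shh stood a region common to both lists. Its nearest FM summit was 1.13 kb and its KO summit 1.41 kb inside the gene. Peaks at gene ends therefore do not tell these cell types apart, and the part of feeder cells in the peaks of the Hedgehog genes was not tested. Which part of Mixl1 was altered is not given, so its peak does not check the labels.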

How the data were processed

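ATAC-seq peaks of 6 libraries in 2 groups were analysed as the authors deposited them, in 1 narrowPeak list per group. The submitters' processing notes name bcl2fastq, Bowtie2, SAMtools, MACS2 and mm10 and no version. Pooling of libraries, any Tn5 shift and read filters were not given in the sources used here. Each deposited peak has a fold enrichment, a ratio to the local background, and a p-value and a q-value, both as −log10. The lowest deposited −log10 q was 1.30.

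Rows of the same interval were collapsed to the lowest p-value, and peaks on assembled chromosomes were kept. FM and KO peaks were merged into regions, which were assigned to the nearest of 21883 RefSeq protein-coding genes within 100 kb, with distance 0 inside a gene and ties counted for each. Pileup and background were solved from fold and p under the MACS2 formulas with a pseudocount of 1, and 99.99% (FM) and 99.97% (KO) of pileups were whole within 0.02. Merging, assignment to genes and recovery of pileups were tested on simulated data, and collapsing of rows was not. The simulated regions had at most 1 peak of each list, and the simulated pileups followed the same formulas. Intervals are exact binomial at 95% and take regions as independent. Python 3.11.15, pandas 2.3.3 and scipy 1.17.1 were used.

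Named peaks are, per gene, those of highest fold, those over the start or ends, the specific peak of highest −log10 q, and every specific peak of −log10 q of at least 10. Further common peaks named at Hhip, Gli3 and Ptch1 were chosen after their values were seen. The members and lists were chosen with earlier results of these data known. Some items are not reported here. Alternatives were a stricter overlap, stricter −log10 q, 50000 peaks per list, other distances and leaving out Gli2. Depth in reads is unknown.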

Additional observations from a re-analysis of the deposited data

How the results depend on the processing

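At the 8 genes, FM-specific regions made up 78.6% of specific regions as described, and 77.0% to 82.5% under 7 of 8 other settings. It moved to 60.6% (exact binomial interval 42.1 to 77.1) with 50000 peaks from each list. This came from 20 FM-specific, 13 KO-specific and 29 common regions, where the share over all regions was 49.7%. A region was then specific against the other list's 50000 peaks, not against its full list. Gene counts then moved at Ptch1 to 1 FM-specific and 3 KO-specific regions and at Shh to 1 and 2. Against the full other list, regions of −log10 q of at least 5 numbered 37 FM-specific and 9 KO-specific, a share of 80.4% where all regions had 74.2%, with 4 genes having more FM-specific ones. Keeping peaks of −log10 q of 5 or more, 62 regions were FM-specific, 18 KO-specific and 51 common. The FM share was then 77.5%, where all regions had 72.1%. Within 20 kb of the genes 62 regions were FM-specific, 14 KO-specific and 71 common, a share of 81.6%. Counting every region within 100 kb gave 163, 42 and 175 FM-specific, KO-specific and common regions, and leaving out Gli2 gave 47, 10 and 51, as more or fewer regions enter by construction. For the 20 kb and the every-region setting no share over all regions was taken. Calling a peak specific where no peak of the other list covers its summit, chosen after seeing the data, gave 107 FM and 34 KO peaks (75.9% FM). These are 53.0% of FM and 25.6% of KO peaks at the 8 genes, beside 55.1% and 31.9% of all peaks. The cause of the move with 50000 peaks was not tested.

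No paired analysis was possible because each group has 1 peak list, and libraries could not be left out for the same reason.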
